A study of Mus musculus with 2 samples.

Results

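The genes described here are Vldlr and 7 other members of the LDL receptor family, Lrp1, Lrp5, Lrp6, Lrp8, Lrp10, Lrp12 and Sorl1, 8 of the 22910 genes that could be named on the array. They were chosen by name, as probes whose accession belongs to one of these genes. The group was built around Vldlr, which was chosen for its large difference between these same arrays. Its values therefore describe the arrays and carry no test. The samples were primary macrophages (1 culture, day 5) and self-renewing macrophages (1 culture, grown beyond passage 4), both from bone marrow of C57BL/6 mice labelled male, and each was hybridised with Cy3 to 1 array. Medium of each culture held 100 ng/ml recombinant human M-CSF and serum, and no other agent is named for either. The self-renewing macrophages are the cells of colonies that grew on when most cells stopped dividing. By the methods, cultures were kept as mixed populations except where an experiment names a clone, and the labels of these arrays name none. The age of the mice is not given in the sources used here.

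LDL receptor family members are membrane proteins that bind lipoproteins, proteases and signalling ligands through clusters of cysteine-rich repeats, and most carry short motifs in their tails that recruit adaptors for endocytosis. Vldlr and Lrp8 bind apolipoprotein E-rich particles and are the receptors for reelin. Lrp1 is the large scavenging receptor of macrophages for lipoprotein remnants, protease complexes and dying cells, and Lrp5 and Lrp6 are co-receptors for Wnt proteins. Sorl1 joins LDL receptor repeats to a VPS10 domain and sorts cargo between the Golgi apparatus and endosomes.

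The Vldlr gene is the member the results turn on, so the 250 bases before the first of its annotated starts are shown, on the plus strand of GRCm38.p6 at chr19:27216234-27216483, as RefSeq gives them. Capitals mark the only match among 8 short motifs searched on both strands, the core of the site bound by the macrophage factor PU.1 (GAGGAAG), read here on the opposite strand.
Vldlr: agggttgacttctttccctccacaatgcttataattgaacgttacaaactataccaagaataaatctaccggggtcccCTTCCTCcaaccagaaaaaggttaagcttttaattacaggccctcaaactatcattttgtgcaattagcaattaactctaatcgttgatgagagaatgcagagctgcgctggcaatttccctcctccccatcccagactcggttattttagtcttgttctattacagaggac
This motif was found in 10.6% of the 32851 promoter windows of the same length. The other motifs, none of which was in this window, were ACGTG of the hypoxia response element (16.6% of windows), TCACCCCA of the sterol regulatory element (1.34%), the nuclear receptor core AGGTCA (14.0%), the GC box GGGCGG (32.7%), CCAAT (33.8%), TATAAA (12.4%) and the E-box CACGTG (6.02%), which contains ACGTG. The window was 41.6% G or C, and 14.9% of all windows had a lower share. The window before the second Vldlr start held 1 GC box and 1 CCAAT box. That window was 66.4% G or C, and 85.2% of all windows had a lower share. Of the 8 members, 5 had promoter windows. The PU.1 core had 1 match in the first Vldlr window, 0 in the second and none in those of the other members. As 10.6% of all windows hold this core, nothing is read from the 1 match.

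Both arrays shared 1 slide and 1 scan. Of 56598 gene probes, 34808 were well above background with the primary RNA, as were 33095 with the self-renewing RNA. Signals are given as background-corrected intensity with the error estimate of the scanner software, and as levels, that is log2 relative to the 75th percentile over gene probes, an intensity of 434 (primary) and 446 (self-renewing). With 1 array per cell type there was no spread between cultures, so differences are described by size, with 2-fold as the threshold. Against the labels, the signal of 6 Y-linked genes was well above background for 0 of them on the primary array and for 4 on the other, and that of Xist in the primary RNA alone. Of the members, 0 lie on a sex chromosome, but the sex of the donors and the cell type cannot be told apart here. All 12 macrophage markers listed were well above background on both arrays, among them Csf1r (0.39 log2) and Adgre1 (0.52 log2). Of the 12, 2 were higher by 2-fold or more in self-renewing cells, Mertk (2.23 log2) and Cx3cr1 (1.09 log2). Fcgr1 was lower by 2-fold or more, at -1.76 log2, and the list median was 0.39 log2. Over all named genes, 4.77% were higher and 8.39% lower by as much. Of 12 detected neutrophil markers, 9 were lower by 2-fold or more in self-renewing cells, 4 of them detected on both arrays, with a median over the list of -4.45 log2. Csf3r, the brightest, read 71955 in primary and 77976 in self-renewing cells, while the other 11 summed to 52518 and 3003. Among these 11, Elane differed by -0.47 log2, with levels of 3.05 in primary and 2.58 in self-renewing cells. Cxcr2, well above background in self-renewing cells alone, was at least 1.39-fold higher. The primary array had 11 of the 12 well above background, the other array 7. Of 10 megakaryocyte markers, all detected, 4 were lower by 2-fold or more, a count of 2 with normexp, a model-based background correction, and of 1 among genes detected on both arrays. Their median of -0.77 log2 became -0.32 and -0.28 log2. Pf4, the brightest, read 111068 in primary and 24187 in self-renewing cells, and the other 9 summed to 5521 and 4146. Of 6 detected dendritic cell markers, 2 were lower by 2-fold or more, 1 of them detected on both arrays, and 2 lay above 0. Siglech, the brightest, read 83903 in primary and 91973 in self-renewing cells, and the other 5 summed to 5470 and 664. The median of this list was -0.53 log2, and 0.09 log2 under 1 alternative processing. The part of these cells in the results below was not tested. In RNA of whole cultures, fewer cells of a type and less RNA per cell cannot be told apart.

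All 8 members were measured, by 12 probes, of which 11 were well above background on both arrays and 1, of Vldlr, in self-renewing cells alone. By both its probes, Vldlr was far higher in self-renewing than in primary macrophages. At the brighter probe, the intensity was 20.4 ± 3.39 (scanner error) in primary macrophages and 1026 ± 103 in self-renewing macrophages. Before background correction, the median spot signal there was 62 over a local background of 32 on the primary array, and 1031 over 31 on the self-renewing array. This corresponded to levels of -4.41 and 1.20, a difference of 5.61 ± 0.28 log2 or 49.0-fold. At the dimmer probe, the intensity was 4.13 ± 2.99 in primary macrophages, which was not well above background, and 140 ± 14.4 in self-renewing macrophages. Taken against the lowest signal well above background on the primary array, an intensity of 11.8, the dimmer probe stood at least 11.5-fold higher in self-renewing cells. The brighter probe stood only 0.79 log2 above that limit on the primary array, so that the size of the fold rests on a signal near background there, and with normexp it was 3.63 log2. At the dimmer probe, normexp gave 1.44 log2, below the bound, so that the bound holds for the background subtraction used here and not for that correction.

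**Figure D1:**
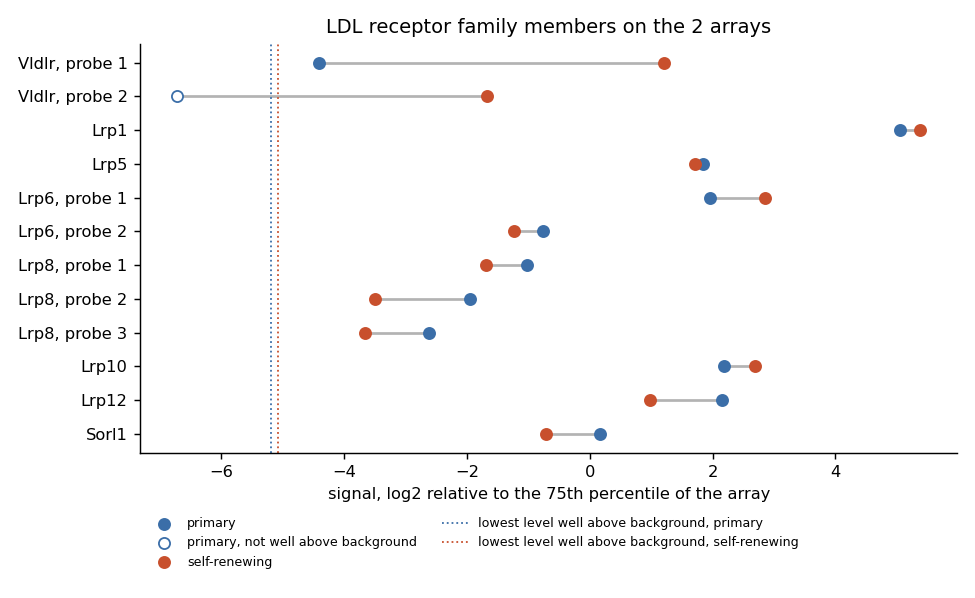
Level of each member probe on the primary array (blue) and the self-renewing array (orange), as log2 relative to the 75th percentile of the array, with dotted lines at the lowest level well above background and an open point for a signal not well above it. The Vldlr probes span 5.61 and 5.04 log2 as measured, and every other probe spans less than the Vldlr probes do.

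Of the genes measured on both arrays without a bound, Vldlr had the second largest difference towards self-renewing cells, after Stap2. This order leaves out genes with bounds, and with these the highest value over all named genes was 7.30 log2. Since Vldlr was chosen for its difference, nothing is read from its rank or from the genes nearest to it. By the size of the difference over these 2 arrays, the genes most like it were Cxcl14, at 5.37 log2 and 0.24 log2 away, Cdkn2b, at 5.07 log2 and 0.54 log2 away, and Stap2, at 6.27 log2 and 0.65 log2 away. Endothelial cells are known to express Vldlr. The part of endothelial or stromal cells in its signal was not tested. Of 7 detected endothelial markers, 0 were higher by 2-fold or more and 1, Egfl7, was lower, at -2.27 log2. Those above 0 were Cldn5, at least 1.63-fold higher and well above background in self-renewing cells alone, and Pecam1 at 0.36 log2, while Tek, Emcn and Tie1 were well above background on neither array. Vwf, the brightest, read 3062 in primary and 2563 in self-renewing cells, and the other 6 summed to 707 and 398. Of 10 fibroblast and stromal markers, Col1a1, Col3a1, Dcn, Lum, Pdgfra and Pdgfrb were well above background on neither array, and of the other 4, 0 differed by 2-fold. Col1a2 was higher in self-renewing cells, at 0.69 log2. Lepr, the brightest, read 4183 in primary and 3915 in self-renewing cells, and the other 3 summed to 84.3 and 103.

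Lrp8, the closest relative of Vldlr in ligands, lay on the other side of 0 at each of its 3 probes. Its brightest probe read an intensity of 213 ± 21.5 in primary and 138 ± 14.2 in self-renewing macrophages, a difference of -0.66 ± 0.21 log2. The other probes read 113 ± 11.6 and 39.3 ± 4.87, and 70.4 ± 7.46 and 35.4 ± 4.48, which gave -1.56 ± 0.23 and -1.03 ± 0.24 log2. Lrp8 was thus lower in the self-renewing macrophages at every probe, but whether it reached 2-fold depended on the probe. The range between its probes, 0.90 log2, was matched or exceeded by 5.32% of the 5077 genes with several probes measured on both arrays.

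Lrp1 was bright on both arrays, at an intensity of 14407 ± 1441 in primary and 18607 ± 1861 in self-renewing macrophages. The difference of 0.33 ± 0.20 log2, or 1.26-fold, was small beside that of Vldlr and close to the root mean square SD of 0.32 log2 between probes of the same gene.

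Of the Wnt co-receptors, Lrp5 differed least of all members. It read 1556 ± 156 in primary and 1463 ± 146 in self-renewing macrophages, or -0.13 ± 0.20 log2, and its direction was not fixed, since it lay at 0.06 log2 with the authors' own scaled values. The probes of Lrp6 disagreed. The brighter one read 1686 ± 169 in primary and 3212 ± 321 in self-renewing macrophages, a difference of 0.89 ± 0.20 log2, while the dimmer one read 256 ± 25.8 and 189 ± 19.2, or -0.48 ± 0.21 log2. No direction can be given for Lrp6 as a gene. Probes on both sides of 0 were found in 23.5% of the genes with several probes, but a range as wide as that of Lrp6, 1.37 log2, in 1.73% of them.

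Lrp12 was lower in the self-renewing macrophages, at 880 ± 88.0 against 1920 ± 192 in primary macrophages. The difference was -1.17 ± 0.20 log2 by its 1 probe, or 2.25-fold, and -0.98 log2 with the authors' scaled values. Of all named genes, 7.02% lay at least as far below 0. Lrp10, which cycles between the Golgi apparatus and endosomes, read 1970 ± 197 in primary and 2865 ± 286 in self-renewing macrophages, a difference of 0.50 ± 0.20 log2. Sorl1 read 489 ± 48.9 in primary and 271 ± 27.3 in self-renewing macrophages, or -0.89 ± 0.20 log2, below the 2-fold threshold. Each of these genes was measured by 1 probe.

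**Figure D2:**
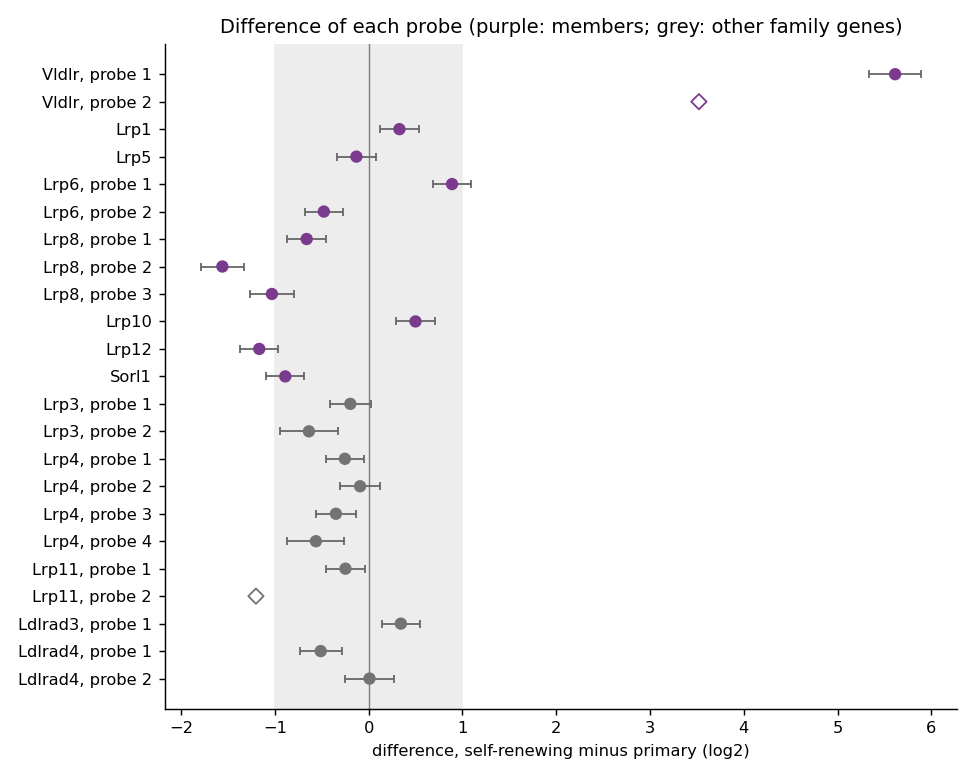
Difference between self-renewing and primary macrophages for each probe of the members (purple) and of other family genes (grey) that was well above background on at least 1 array, in log2. Bars are the error propagated from the scanner's estimates, open diamonds are bounds, and the band marks differences under 2-fold, which Vldlr leaves at 5.61 log2.

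By the brightest probe of each gene, 1 of 8 members (Vldlr) was higher by 2-fold or more in self-renewing cells, where the share over the 15503 named genes was 4.77%, and 1 of 8 (Lrp12) was lower by as much, where it was 8.39%. Since Vldlr was chosen for its difference, nothing is read from the first count. Of the members, 4 lay above 0 and 4 below, with a median of 0.10 log2, against -0.02 log2 over all named genes. The median of the 7 members without Vldlr was -0.13 log2, from -1.17 log2 (Lrp12) to 0.89 log2 (Lrp6). In order of difference at the brightest probe the members were Vldlr, Lrp6, Lrp10, Lrp1, Lrp5, Lrp8, Sorl1 and Lrp12. With the mean over probes, Lrp6 came below Lrp1, at 0.21 log2, and Lrp8 below Sorl1, at -1.08 log2. Neighbours in this order from Lrp6 to Lrp12 lay within 0.53 log2 of each other. The error of a single difference was 0.20 to 0.21 log2, and probes of a gene varied by 0.32 log2. The probes of Lrp6 and Lrp8 ranged more widely, over 1.37 and 0.90 log2. Vldlr stood 4.73 log2 above Lrp6, and with normexp these genes lay at 3.63 and 0.83 log2. Nothing is read from this gap, since Vldlr was chosen for its difference.

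**Figure D3:**
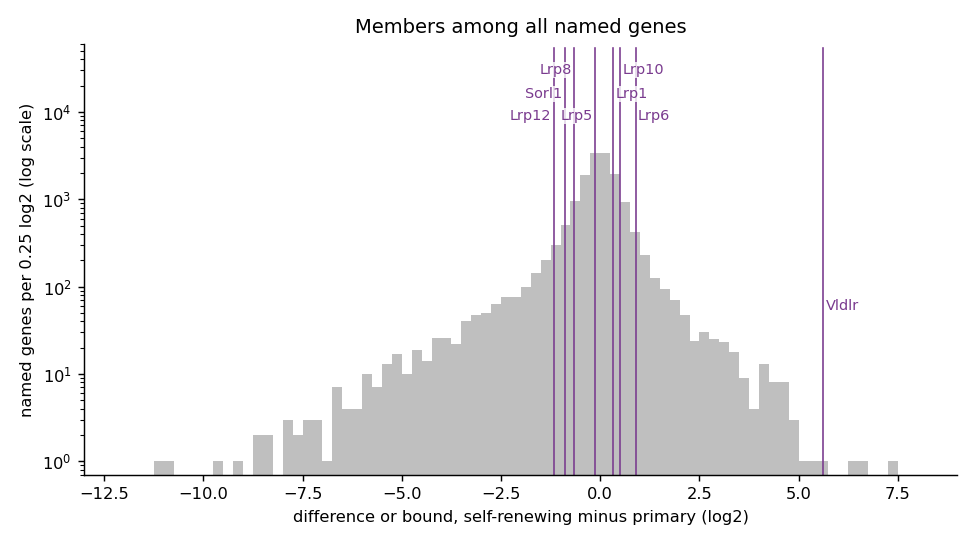
Number of named genes by difference or bound between self-renewing and primary macrophages, in steps of 0.25 log2 on a log scale, with the members as lines. Vldlr lies in the far right tail at 5.61 log2, and the other members lie between -1.17 and 0.89 log2.

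Of 9 further family genes described here, 5 were detected, of which 0 were higher or lower by 2-fold at their brightest probe. Lrp3 was at -0.20 log2, Lrp4 at -0.25 log2, Lrp11 at -0.25 log2, Ldlrad4 at -0.51 log2 and Ldlrad3 at 0.34 log2. A second Lrp11 probe, above the detection limit with primary RNA alone, was at least 2.30-fold lower. Lrp1b, Lrp2, Ldlrad1 and Ldlrad2 were well above background on neither array. Of the proteins that fold these receptors or mark them for degradation, the chaperone Lrpap1 was at 0.43 log2, the LRP5 and LRP6 chaperone Mesd at 0.11 log2, and Mylip, the ubiquitin ligase that degrades Vldlr and Lrp8, at 0.36 log2.

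Ligands of the family differed in both directions. Of 18 detected, 4 were lower and 2 higher by 2-fold or more in self-renewing cells, and the median was -0.09 log2. Beside this and every other list count under the main processing stand the shares over all named genes, 4.77% higher and 8.39% lower. With normexp, 429 of 15486 named genes were higher and 750 lower by 2-fold or more. Among genes detected on both arrays these were 588 and 782 of 14007, and without the filter on background 1192 and 2336 of 22910. Apoe, the apolipoprotein bound by most of these receptors, was 97.7-fold lower, with a level of 5.49 in primary and -1.12 in self-renewing macrophages. Thrombospondin 1 (Thbs1) was at least 19.5-fold lower, clusterin (Clu) at least 4.55-fold lower, and lipoprotein lipase (Lpl) 3.84-fold lower. Selenoprotein P (Selenop), a ligand of Lrp8, was 2.24-fold higher, and A2m at least 2.19-fold higher. With normexp, A2m and Clu were under 2-fold, at 0.31 and -0.80 log2, and Thbs1 was 4.77-fold lower, under its bound. Among ligands detected on both arrays, 2 were lower and 1 was higher by 2-fold or more. Reln, the gene of reelin, was well above background on neither array.

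Of 16 detected genes for folding, turnover and transcription of the receptors, 1 was higher and 3 were lower by 2-fold or more. The hypoxia-inducible factor Epas1 stood 5.67-fold higher in self-renewing cells, at levels of -0.43 in primary and 2.08 in self-renewing macrophages. Nr1h3, which encodes the oxysterol receptor LXRα and induces Mylip, was 11.8-fold lower, 6.69-fold with normexp, the fatty acid receptor Pparg 4.14-fold lower, and Srebf2, the sterol-regulated activator of cholesterol synthesis genes, 2.32-fold lower. Among 13 detected adaptors that bind receptor tails, Apbb1 was 4.16-fold higher, 2.07-fold with normexp, and 0 were lower by 2-fold. Dab2, which links the receptors to clathrin-coated pits, was at -0.08 log2. Dab1, the adaptor of reelin signalling, was well above background on neither array, and of 17 detected genes of that pathway 0 were 2-fold higher or lower.

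On the Wnt side, of 11 detected Wnt ligands, Wnt9a was 3.46-fold higher in self-renewing cells and Wnt6 at least 17.7-fold lower. With normexp these were 1.82-fold and 4.53-fold, so that Wnt9a was under 2-fold and Wnt6 under its bound, and Wnt6 has no value where genes detected on both arrays alone are kept. Of 12 detected Wnt receptors and modulators of Lrp5 and Lrp6, 4 were lower by 2-fold or more, namely Fzd1 (at least 4.70-fold), Fzd4 (at least 3.23-fold), Znrf3 (2.75-fold, with probes from -1.46 to -0.53 log2) and Fzd7 (2.27-fold). With normexp 0 of that list were lower by 2-fold, these 4 lying between -0.94 and -0.62 log2, and the count was 2 among genes detected on both arrays and 10 without the filter on background. Ryk was 2.82-fold higher, and 27 genes of that list were well above background on neither array. Of 18 detected genes of the β-catenin pathway, 2 were higher by 2-fold or more, both transcription factors, Tcf7 at least 5.43-fold and Tcf7l2 3.62-fold, although the probes of Tcf7l2 ranged from 0.40 to 1.86 log2. With normexp, Tcf7 was at 0.85 log2 and under 2-fold. Ctnnb1, which encodes β-catenin, was at -0.07 log2, and its target Axin2 was well above background on neither array. Beside Sorl1, 18 genes of VPS10 receptors, GGA adaptors and retromer were detected, and 0 of them differed by 2-fold, with Sort1 at -0.41 log2. Of 11 detected genes of shedding and γ-secretase, Aph1b was 2.14-fold higher, Bace1 3.91-fold lower and Aph1c 2.43-fold lower. With normexp, Aph1b was under 2-fold, at 0.97 log2, and Bace1 was 2.71-fold lower. The near-identical Aph1b and Aph1c can share probe signal, so their values are uncertain.

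**Figure D4:**
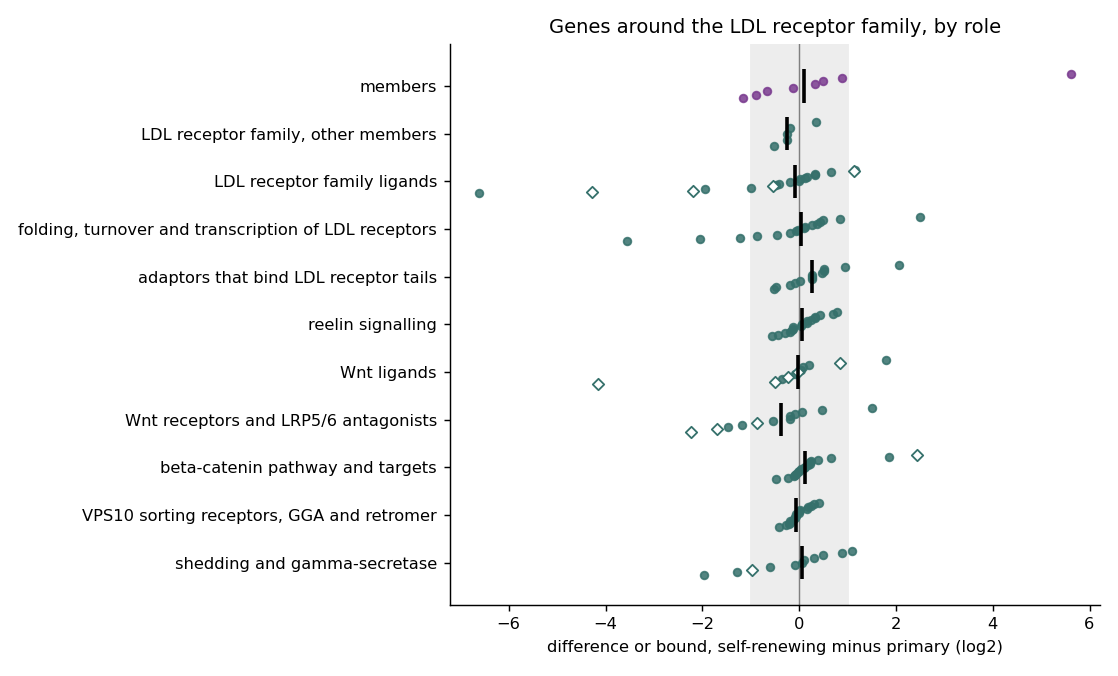
Difference or bound between self-renewing and primary macrophages, in log2, for each detected gene of the lists by role, with open diamonds for bounds, black lines at the medians and a band for differences under 2-fold. The list medians lie between -0.37 and 0.26 log2, with Vldlr at 5.61 log2 the highest of these genes and Apoe at -6.61 log2 the lowest.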

How the data were processed

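RNA of 1 culture per cell type was hybridised to Agilent SurePrint G3 mouse arrays. Scanner output of Agilent Feature Extraction 11.5.1.1 was deposited by the authors, with spot intensity corrected for background and spatial trend within, and not scaled between, arrays. They also deposited a table of the same intensity times 1 constant per array, 1.07 and 1.19, whose basis is not given in the sources used here. Deposited flags tell which spots are bright enough over background, saturated (0 gene spots) or outliers (63 per array, left out).

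Here spots of a probe were averaged, and each array's 75th percentile was subtracted on the log2 scale. Probes were named through RefSeq accessions of GRCm38.p6, which matched 32988 of 56598 probes. The array design uses an earlier build, so only promoter coordinates of that table are given. A gene was represented by its brightest probe well above background on at least 1 array, where 14003 of 15516 genes were so on both. For a gene so on 1 array only, a bound replaced the difference, with the dim side set to that array's detection limit (its faintest signal well above background) or to the dim signal itself where higher. Bounds under 1-fold (13 genes) were dropped. Within an array, repeat spots of a probe had a median SD of 0.042 (primary) and 0.046 log2. The number of arrays limits the precision, and no test was made. Scripts were tested on simulated data. Genes named are all members and family genes, Lrpap1, Mesd and Mylip, at most the 4 largest of each role list in each direction past 2-fold, and the 3 genes nearest to Vldlr. Others were chosen after their values were seen. The members and lists were chosen with earlier results of these data known. Of 14 genes listed for shedding, 13 were matched. Some genes of the lists are not reported here. The analysis used Python 3.11.15, numpy 2.4.6, pandas 2.3.3, matplotlib 3.10.9, R 4.3.3 and limma 3.58.1.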

Additional observations from a re-analysis of the deposited data

How the results depend on the processing

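No paired analysis was possible because there is 1 array per cell type. Of 9 alternatives, the authors' scaled values, normexp (offset 50), quantile normalization, scaling on the 75th percentile or median of probes detected on both arrays, keeping undetected probes, dropping bounds, averaging a gene's probes and keeping outlier spots, each left Vldlr above 0, from 3.63 to 5.80 log2. Vldlr was at 3.63 log2 with normexp, whose offset draws dim signals together by construction. With the mean over probes it was at 4.57 log2, a mean that takes the dimmer probe at its bound. Nothing is read from the sign of Vldlr, which was chosen for its large difference. Keeping undetected probes or dropping bounds could not change its value, since its brighter probe was detected on both arrays. The authors' scaled values shifted the median of all genes by 0.19 log2. With them 2 members were at least 2-fold higher, as Lrp6 reached 1.08 log2, and 0 at least 2-fold lower, and 49.2% of all genes past 2-fold were higher, against 36.2% here. With the mean over probes, 2 members were lower by 2-fold, as Lrp8 reached -1.08 log2, and Lrp6 was at 0.21 log2. Of all named genes, 429 were higher and 750 lower by 2-fold with normexp, and 1192 and 2336 without the filter on background, against 739 and 1300 here. With bounds dropped, 782 were lower. Of the single members, only Lrp5 changed sign, under 1 alternative, the authors' scaled values. Of 432 values of the role and marker lists, 395 moved by at most 1.5 times for counts or by under 0.32 log2 for medians, and 37 by more.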

Other observations

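The annotated range of the long non-coding RNA Gm35438 overlaps that of Vldlr, and its probe differed by -0.22 log2, with levels of -2.49 in primary and -2.71 in self-renewing macrophages. Of the 10 genes on the array nearest to Vldlr in the order of the GRCm38.p6 assembly, 5 on each side, 7 were detected. Of these, the non-coding RNA Gm35268 (a bound of 1.43 log2) was the 1 gene higher by 2-fold or more in self-renewing cells. It was well above background there alone. The 1 gene lower by as much was the transcription factor Rfx3 at -1.87 log2. Both were dim in self-renewing cells, at levels of -3.76 and -4.56, where the lowest level well above background was -5.08. The chromatin remodeller Smarca2 was at 0.96 log2, and Kcnv2, Pum3 and C030016D13Rik lay between -0.27 and -0.13 log2.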
